A study of Homo sapiens with 2 samples.

Results

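The genes described here encode the enzymes and carriers that keep cellular thiols reduced, remove peroxides and supply the NADPH that pays for it. They are 56 genes of the 18944 in the deposited count table, chosen by symbol: glutathione synthesis and use, thioredoxins, peroxiredoxins, superoxide dismutases and catalase, NADPH supply, haem oxygenases and ferritin. RNA was sequenced from H1993, an established human lung adenocarcinoma line in which the receptor tyrosine kinase gene MET is amplified. The resistant library came from a derivative selected in the MET kinase inhibitor PHA665752, raised from 1 nM to 1 µM and then held at 1 µM. Before experiments the derivative was kept without drug for 1 week, and its library carries PHA665752 as its treatment label. The parental library came from the unselected line and carries DMSO as its treatment label. Both lines were grown in RPMI-1640 with fetal bovine serum. The labels leave unsaid whether the derivative was a clone and whether RNA was taken with drug present.

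Each group has a single library, of 17086748 counts for the resistant and 16723181 for the parental cells. Whether fewer cells carried an RNA or each cell held less of it cannot be told apart in such bulk RNA. No difference below has a replicate check or a p-value, and each statement describes these 2 libraries. A gene was measured when it reached 1 CPM (counts scaled to a fixed TMM-adjusted library size) in at least 1 library. It was called higher or lower when its log2 ratio, resistant over parental, was 1 or more in size and the exact 95% interval of the count ratio excluded 0. Such intervals cover counting error only. All 8 epithelial markers looked at were measured, with a median log2 ratio of -0.66 and 5 of them below 0. The keratin genes KRT8, KRT18 and KRT7 lay above 0, KRT8 at 3394 CPM in the resistant and 2666 CPM in the parental library. EPCAM, an epithelial adhesion gene, was the 1 called among them, lower at a log2 ratio of -1.25. Of 5 lung markers only NKX2-1 was measured, at 5.95 CPM in the resistant and 4.16 CPM in the parental library. The 6 haematopoietic markers summed to 2.77 CPM in the resistant and 1.96 CPM in the parental library, with CD3E at 0 in both. The 6 fibroblast markers summed to 15.0 CPM and 20.9 CPM in the same order, nearly all of it COL1A1, with DCN at 0 in both. The 4 endothelial markers summed to 29.2 CPM in the resistant and 0.356 CPM in the parental library, nearly all of it CDH5, while KDR was at 0 in both. The part of these markers in the results below was not tested. MET itself was at 3054 CPM in the resistant and 4859 CPM in the parental library.

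Cells take up cystine in exchange for glutamate, reduce it to cysteine and join it with glutamate and glycine to make glutathione. Glutathione and thioredoxin pass electrons to the peroxidases and glutaredoxins, and glutathione reductase and thioredoxin reductase recharge them with electrons from NADPH. Many of these genes are known targets of NRF2, the transcription factor encoded by NFE2L2 that KEAP1 holds in check. In lung adenocarcinoma that axis is known for activating mutations. NFE2L2 had 252 CPM in the resistant and 63.3 CPM in the parental library, a log2 ratio of 1.99, and KEAP1 had 136 CPM and 121 CPM in the same order.

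Of the 54 measured redox genes, 14 (25.9%) passed the rule as higher in the resistant library and 3 (5.56%) as lower. Over all 12245 measured genes 12.1% passed as higher and 8.29% as lower, or 20.4% either way. These shares are the background for each count of called genes below, and no group of genes was tested against them. The median log2 ratio was 0.37 over the redox genes and 0.00 over all measured genes. The higher genes were SLC7A11, SLC3A2, TXNRD1, GPX3, GPX8, SRXN1, GLRX, FTL, PGD, OSGIN1, UGDH, GSTM3, GSTM4 and GSTA4, and the lower ones TXNIP, GPX2 and TXNRD3. Another 37 were called neither way, and 25 of these had ratios above 0. The remaining members, GPX7 and GSTP1, had 0 counts in both libraries. GSTM3 and GSTM4 did not reach 1 CPM in parental cells, so the filter let them in by their resistant level alone and fixed their direction. Just inside the rule lay PGD, at a log2 ratio of 1.12, and just outside it HMOX1 at 0.99 and SOD2 at 0.96. On the lower side TXNRD3 at -1.26 was the nearest inside and MGST1 at -0.83 the nearest outside.

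Together the 56 genes took 1.28% of all counts in the resistant library (exact 95% interval 1.28 to 1.29%) and 0.774% in the parental library (0.770 to 0.778%). TXNRD1 alone made up 19.2% of these counts in the resistant and 8.54% in the parental library. Without it the genes still summed to 10438 CPM in the resistant and 7031 CPM in the parental library.

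**Figure D1:**
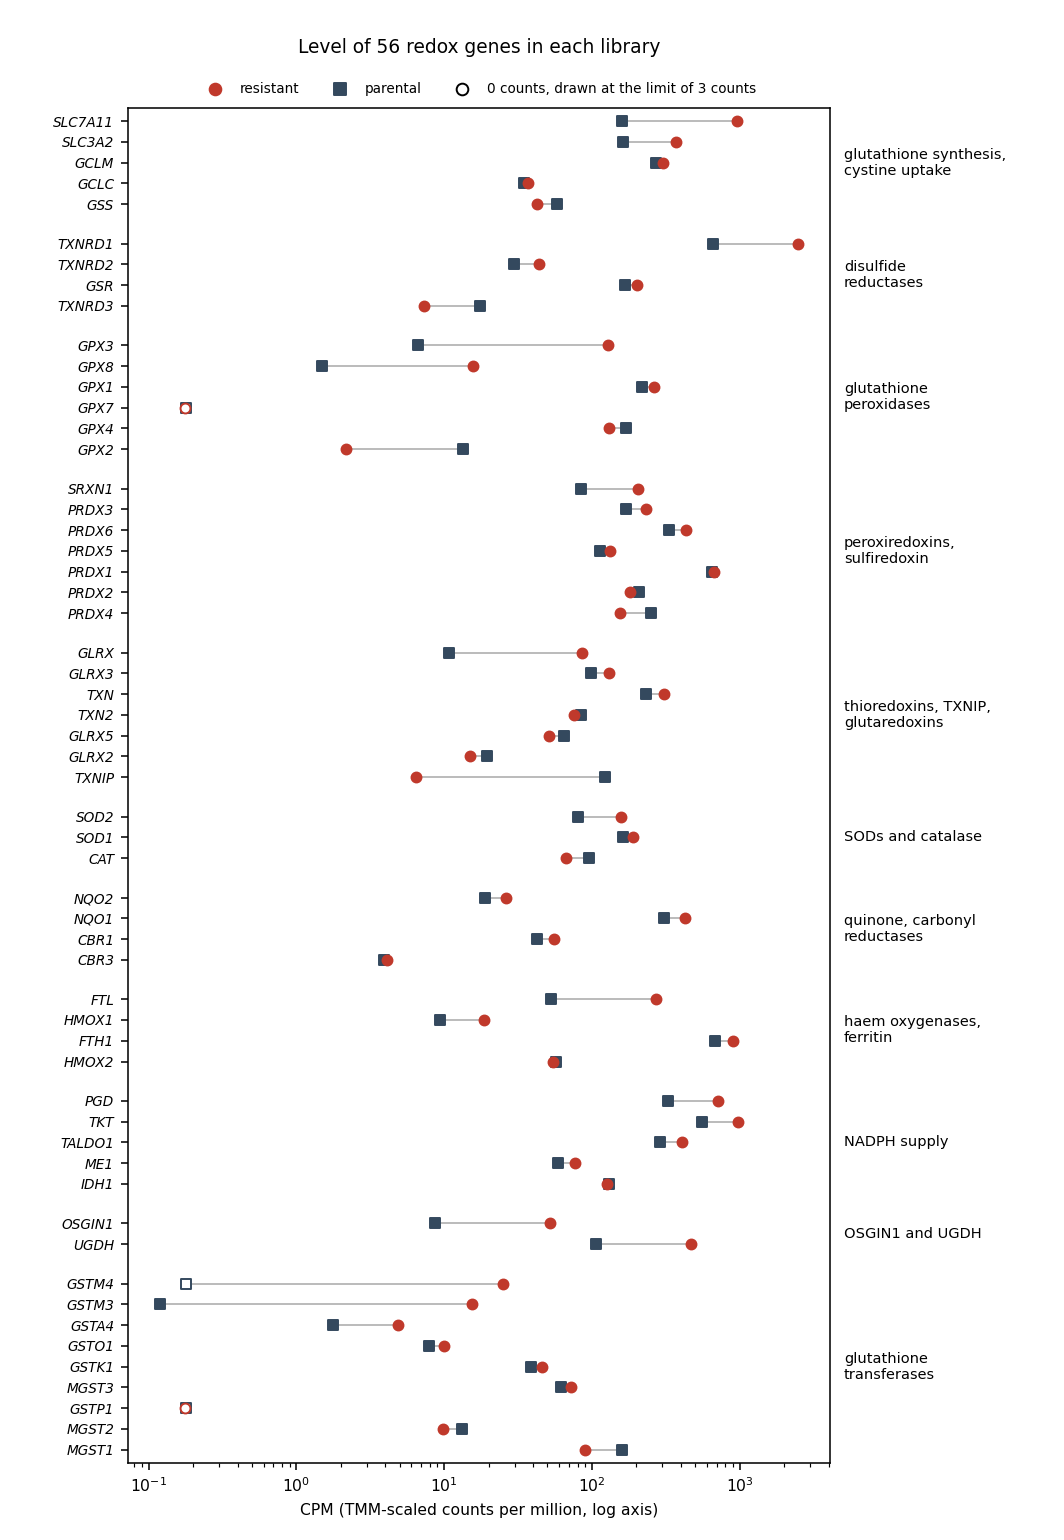
Level of each of the 56 redox genes in CPM on a log axis, in the resistant (red circles) and the parental library (dark squares), 1 library each, grouped by role. Open symbols mark 0 counts, drawn at the limit that 3 counts set. The long lines are those of TXNIP and GPX2, lower in the resistant library, and of GPX3, GPX8, GLRX, GSTM3 and GSTM4, higher in it, while most peroxiredoxins lie close together.

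NRF2 binds the antioxidant response element, and promoter windows of the members were searched for its core, TGACNNNGC, on both strands. RefSeq windows (GRCh38.p14) of 250 bases before to 50 after an annotated start were found for 44 members. CBR3, FTH1, GLRX3, GSR, GSS, HMOX1, MGST2, PRDX1, PRDX6, SLC7A11, SOD1 and TXN2 were not searched. The core stood in a window of 12 of the 44 members (27.3%) and of 1887 of 9619 measured genes (19.6%). Counted by window, it stood in 13 of 62 of the members' and 2056 of 14160 of the measured genes', or 21% and 14.5%. Of 13 higher members 4 held it (30.8%), and of 26 measured members called neither way 6 did (23.1%). The lower gene GPX2 and the unmeasured GSTP1 held it too. The stretches below show the core in capitals with up to 40 bases on each side, cut at the annotated start. They cover the 5 called members that hold it, and GCLM, ME1 and GSTP1, picked from the holders that were not called. IDH1, GSTO1, MGST1 and CBR1 hold it too, were not called and are not shown. A match describes letters and is no evidence of binding.
SLC3A2: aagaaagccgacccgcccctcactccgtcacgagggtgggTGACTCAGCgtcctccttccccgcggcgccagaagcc
ME1: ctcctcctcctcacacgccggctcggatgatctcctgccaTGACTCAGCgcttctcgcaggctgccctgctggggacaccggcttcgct
GSTP1: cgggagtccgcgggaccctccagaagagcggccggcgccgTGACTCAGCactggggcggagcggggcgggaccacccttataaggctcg
TXNRD1: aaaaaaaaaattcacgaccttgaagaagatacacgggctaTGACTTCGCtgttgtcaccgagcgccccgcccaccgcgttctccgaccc
TXNRD1 (downstream start): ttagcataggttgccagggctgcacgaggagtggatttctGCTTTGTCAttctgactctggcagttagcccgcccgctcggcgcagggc
PGD: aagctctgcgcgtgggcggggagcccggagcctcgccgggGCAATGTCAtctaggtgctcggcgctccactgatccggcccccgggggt
GSTA4: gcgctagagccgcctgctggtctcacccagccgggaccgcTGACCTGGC
GPX2: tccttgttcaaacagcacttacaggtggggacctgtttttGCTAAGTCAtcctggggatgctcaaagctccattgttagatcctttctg
GCLM: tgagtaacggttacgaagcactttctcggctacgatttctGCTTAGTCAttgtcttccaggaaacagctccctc
In GRCh38.p14 these lie at chr11:62881622-62881698, chr11:67583706-67583794, chr12:104215640-104215728, chr12:104286890-104286978 and chr1:10398823-10398911 on the plus strand, and at chr6:83431140-83431228, chr6:52995285-52995333, chr14:64942819-64942907 and chr1:93909431-93909504 on the minus strand. Each is written in its gene's direction. In TXNRD1 at its downstream start, PGD, GPX2 and GCLM the core lies on the opposite strand, so the capitals are its reverse complement. The upstream TXNRD1 window holds the core once more, 8 bases before its start. The ME1 window also holds it once more, after the annotated start. SLC3A2, ME1 and GSTP1 carry the same letters, TGACTCAGC, 37, 137 and 66 bases before their starts. These 3 genes differed in level: SLC3A2 was called higher, ME1 had a log2 ratio of 0.37, and GSTP1 had 0 counts in both libraries.

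Both genes of the cystine exchanger were called higher, and none of the 3 genes that build glutathione was called. SLC7A11, the cystine and glutamate exchanger itself, had 16234 counts (956 CPM) in the resistant and 2673 counts (159 CPM) in the parental library. That was 6.02-fold higher (5.78 to 6.28). SLC3A2, the heavy chain that carries SLC7A11 and other light chains to the membrane, had 368 CPM in the resistant and 161 CPM in the parental library, 2.28-fold higher (2.18 to 2.39). The exchanger gene differed more than its partner. SLC7A11 counts per SLC3A2 count were 2.60 in the resistant and 0.983 in the parental library, a 2.64-fold difference (2.48 to 2.81). On the length-scaled levels behind the deposited log2 values, SLC7A11 was 0.488 of SLC3A2 in the resistant and 0.190 of it in the parental library.

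Glutamate-cysteine ligase makes the first and rate-limiting bond of glutathione. Its catalytic subunit gene GCLC had 37.2 CPM in the resistant and 34.8 CPM in the parental library, and its modifier subunit gene GCLM had 301 CPM and 270.4 CPM. Neither was called, at log2 ratios of 0.10 (-0.07 to 0.26) and 0.15 (0.10 to 0.21). GCLC counts per GCLM count were 0.123 in the resistant and 0.129 in the parental library, a ratio of 0.961 (0.853 to 1.08), with an interval that held 1. GSS, the synthetase of the last step, had 42.2 CPM in the resistant and 58.1 CPM in the parental library (log2 ratio -0.46).

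Among the NADPH-driven disulfide reductases, the cytosolic thioredoxin reductase gene stood out. TXNRD1 had 42174 counts (2485 CPM) in the resistant and 11047 (656 CPM) in the parental library, 3.79-fold higher (3.71 to 3.87). TXNRD2, which encodes the mitochondrial enzyme, had 43.7 CPM in the resistant and 29.6 CPM in the parental library and was not called (log2 ratio 0.56). TXNRD3, the paralog with an added glutaredoxin domain known from testis, had 124 counts (7.31 CPM) in the resistant and 295 counts (17.5 CPM) in the parental library, 2.40-fold lower (1.94 to 2.98). The 3 paralogs thus had a higher, an uncalled and a lower member. GSR, glutathione reductase, had 204 CPM and 168 CPM in the same order (log2 ratio 0.27). TXNRD1 counts per GSR count were 12.2 in the resistant and 3.90 in the parental library, 3.13-fold apart (2.97 to 3.30).

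The thioredoxin genes were not called, while the gene of a thioredoxin inhibitor was far lower. TXN, cytosolic thioredoxin, had 306 CPM in the resistant and 233 CPM in the parental library, and mitochondrial TXN2 had 75.8 CPM and 84.3 CPM, at log2 ratios of 0.39 and -0.15. Per TXN count there were 8.11 TXNRD1 counts in the resistant and 2.81 in the parental library, a 2.88-fold difference (2.75 to 3.02). In GENCODE v29, 7 pseudogenes are named after TXN, and how reads that fit several places were counted is not given. The TXN level and the ratios to it are therefore uncertain. TXNIP encodes the arrestin-fold protein that binds reduced thioredoxin and restrains glucose uptake. It had 110 counts (6.48 CPM) in the resistant and 2063 counts (123 CPM) in the parental library, 18.9-fold lower (15.6 to 23.1). TXNIP counts per TXN count were 0.0211 in the resistant and 0.525 in the parental library. Of its fellow arrestin-domain genes and the Mondo factors known to drive it in response to glucose, 0 of 6 measured were called. Over all measured genes 20.4% were called, and the median of these 6 was -0.05. MLXIP, which encodes MondoA, came nearest at 63.6 CPM in the resistant and 127.0 CPM in the parental library (log2 interval -1.10 to -0.89), just short of the rule. ARRDC3 was at 0.51, and ARRDC4, another glucose-responsive arrestin gene, had 0 counts in both libraries.

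Glutaredoxins reduce protein disulfides formed with glutathione. The cytosolic GLRX had 1446 counts (85.2 CPM) in the resistant and 182 counts (10.8 CPM) in the parental library, 7.88-fold higher (6.75 to 9.24). The glutaredoxins of iron-sulfur cluster handling were not called. GLRX3 had 131 CPM in the resistant and 98.4 CPM in the parental library, mitochondrial GLRX5 had 51.1 CPM and 65.0 CPM, and GLRX2 had 15.1 CPM and 19.5 CPM. Their log2 ratios were 0.41, -0.35 and -0.37. On the length-scaled levels, GLRX was 0.831 of GLRX3 in the resistant and 0.141 of it in the parental library.

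**Figure D2:**
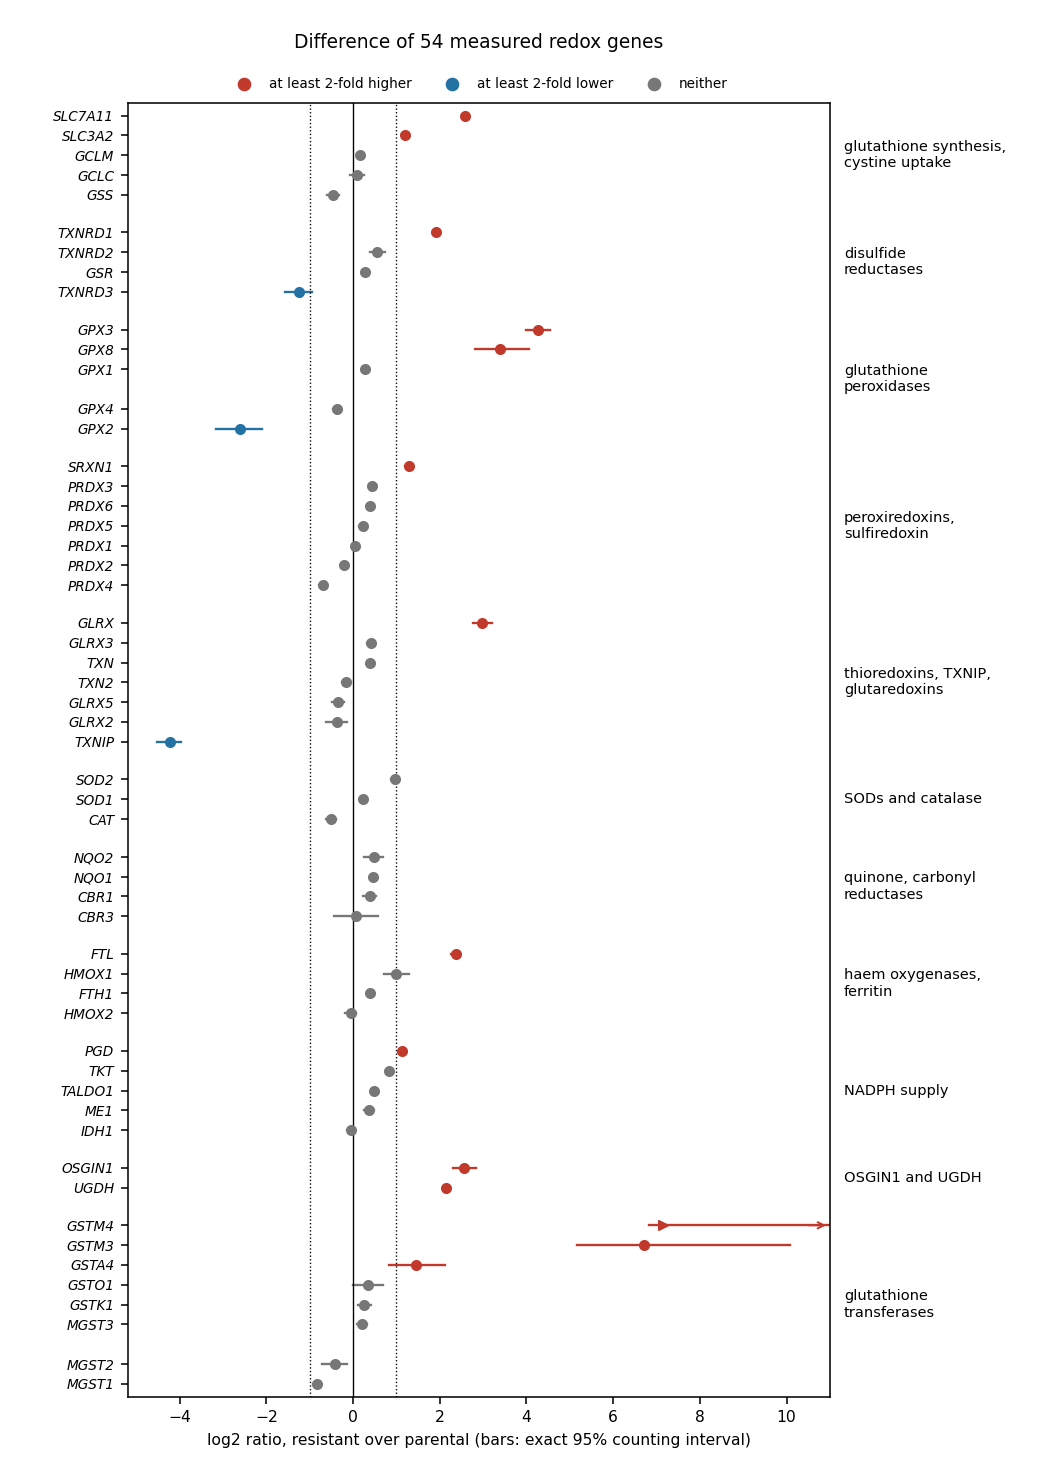
Log2 ratio of the 54 measured redox genes, resistant over parental, with exact 95% counting intervals, grouped by role, with dotted lines at 2-fold. The triangle of GSTM4 marks the bound set by 3 counts, since it had 0 counts in the parental library, and the arrow an open interval. Most roles hold genes near 0 beside a called gene.

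Glutathione peroxidases, which spend glutathione on peroxides, diverged within the family. GPX3, the secreted plasma-type enzyme, had 2195 counts (129 CPM) in the resistant and 113 counts (6.71 CPM) in the parental library, 19.3-fold higher (15.9 to 23.5). GPX8, an enzyme of the endoplasmic reticulum membrane, had 268 counts (15.8 CPM) in the resistant and 25 counts (1.49 CPM) in the parental library, a log2 ratio of 3.38, with an interval of 7.05 to 16.7-fold, and a difference of 1.92 in the authors' deposited log2 values. GPX2, the epithelial gastrointestinal enzyme and a known NRF2 target, went the other way. It had 37 counts (2.18 CPM) in the resistant and 225 counts (13.4 CPM) in the parental library, 6.13-fold lower (4.32 to 8.93). The widely expressed GPX1 had 263 CPM in the resistant and 217 CPM in the parental library (log2 ratio 0.27). GPX4, the phospholipid hydroperoxide peroxidase that guards membranes, had 130.2 CPM and 169 CPM (log2 ratio -0.38). On the length-scaled levels GPX1 remained the highest of the family in both libraries, at 365 in the resistant and 300.5 in the parental library, and GPX3 reached 0.220 of GPX1 in the resistant library, against 0.0139 of it in the parental library. GPX7 had 0 counts in both, which allows up to 0.177 CPM in the resistant and 0.178 CPM in the parental library. Of the 7 selenocysteine enzymes among the members, GPX1 to GPX4 and the 3 thioredoxin reductases, 2 were higher and 2 lower. Of the selenocysteine machinery genes and the deiodinase gene DIO2, 0 of 8 measured were called, beside 20.4% of all measured genes. Their median was 0.07, with the selenophosphate synthetase gene SEPHS2 at 0.25. The 11 selenoprotein genes of that list with SELENO symbols were not analysed here.

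Peroxiredoxins, the abundant thioredoxin-dependent peroxidases, had 0 of 6 members called, beside 20.4% of all measured genes. PRDX1 had 11338 counts (668 CPM) in the resistant and 10978 (652 CPM) in the parental library, a log2 ratio of 0.03 whose interval held 0 (-0.00 to 0.07). PRDX6 had 436 CPM in the resistant and 335 CPM in the parental library, and mitochondrial PRDX3 had 231 CPM and 171 CPM (log2 ratios 0.38 and 0.44). PRDX5 was at 0.23 and PRDX2 at -0.21. PRDX4, the peroxiredoxin of the endoplasmic reticulum, was lowest at -0.70, with 154 CPM in the resistant and 251 CPM in the parental library. Of its 20 nearest measured genes 13 had a log2 ratio of -1 or less, and the part of this in its own ratio was not tested. SRXN1, sulfiredoxin, which repairs overoxidized peroxiredoxins, was the 1 called gene of this role. It had 3479 counts (205 CPM) in the resistant and 1411 counts (83.8 CPM) in the parental library, 2.45-fold higher (2.30 to 2.60). In GENCODE v29, 85% of the exon bases of SRXN1 overlap AL121758.1, a protein-coding gene on the same strand. The count table does not list AL121758.1, and how shared reads were counted is not given, so the SRXN1 level is uncertain. SRXN1 counts per PRDX1 count were 0.307 in the resistant and 0.129 in the parental library. PRDX1 is uncertain too, since 24.9% of its exon bases overlap MMACHC on the opposite strand and the strand setting is not given.

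No superoxide dismutase or catalase gene was called, but SOD2 came close. SOD2, the mitochondrial manganese enzyme and a known NF-kB target, had 157 CPM in the resistant and 80.3 CPM in the parental library, 1.95-fold higher (1.83 to 2.09). The cytosolic SOD1 had 189.9 CPM in the resistant and 162 CPM in the parental library (log2 ratio 0.23). CAT, peroxisomal catalase, had 67.0 CPM and 95.6 CPM in the same order (log2 ratio -0.51). Of the 7 members with mitochondrial products, SOD2 among them, 0 were called, beside 20.4% of all measured genes. Their median was 0.26.

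Quinone and carbonyl reductase genes had 0 of 4 members called, beside 20.4% of all measured genes. NQO1, the quinone reductase gene often used as an NRF2 readout, had 7213 counts (425 CPM) in the resistant and 5214 (309.7 CPM) in the parental library, 1.37-fold higher (1.32 to 1.42). NQO2 was at a log2 ratio of 0.47 and CBR1 at 0.38. CBR3, the neighbour of CBR1, had 70 counts in the resistant and 66 in the parental library (log2 ratio 0.07, interval -0.43 to 0.58).

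Ferritin stores iron in a shell of heavy and light chains, and the chain genes differed unequally. The light chain gene FTL had 4597 counts (271 CPM) in the resistant and 886 counts (52.6 CPM) in the parental library, 5.15-fold higher (4.79 to 5.54). The heavy chain gene FTH1 had 15209 counts (896 CPM) in the resistant and 11509 (684 CPM) in the parental library, 1.31-fold higher (1.28 to 1.34) and not called. FTL counts per FTH1 count were 0.302 in the resistant and 0.0770 in the parental library, a 3.93-fold difference (3.64 to 4.24). In GENCODE v29, 16 pseudogenes are named after FTL and 25 after FTH1, and 62.4% of the exon bases of FTH1 overlap BEST1 on the opposite strand. How reads that fit several places were counted is not given in the sources used here, so both levels are uncertain. Of the 20 measured genes nearest to FTL on chromosome 19, 8 had a log2 ratio of 1 or more, and their median was 0.67. Whether this neighbourhood bears on FTL was not tested. Around 15 of the 17 called members the median of such neighbours lay within 0.5 of 0, the exceptions being FTL and GSTA4. Among members called neither way it lay beyond 0.5 for PRDX4 (-1.24), GCLC (-0.75), MGST1 (-0.64), PRDX1 (-0.60) and TKT (0.63). HMOX1, the stress-induced haem oxygenase that frees iron from haem, had 316 counts (18.6 CPM) in the resistant and 157 counts (9.33 CPM) in the parental library, a log2 ratio of 0.99 just short of the rule, with an interval of 1.64 to 2.43-fold. Its constitutive paralog HMOX2 had 54.7 CPM and 57.0 CPM in the same order (log2 ratio -0.06).

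Around ferritin and haem, the other iron genes were mixed. Their 13 measured members had a median of -0.01, with 2 called higher and 1 lower. BLVRB, which reduces biliverdin, was 2.33-fold higher (2.11 to 2.58), and the transferrin receptor paralog gene TFR2 2.49-fold higher (1.97 to 3.17). STEAP3, an endosomal ferric reductase, was 2.91-fold lower (2.61 to 3.24). TFRC, the main transferrin receptor gene, was at a log2 ratio of -0.49, and NCOA4, which leads ferritin to breakdown, at -0.18.

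NADPH comes mainly from the pentose phosphate pathway, malic enzyme and isocitrate dehydrogenase. PGD, an NADPH-producing dehydrogenase of the pentose phosphate pathway, had 12067 counts (711 CPM) in the resistant and 5515 (328 CPM) in the parental library, 2.17-fold higher (2.10 to 2.24). The members of its non-oxidative arm were not called. TKT, transketolase, had 977 CPM in the resistant and 554 CPM in the parental library (log2 ratio 0.82), and TALDO1, transaldolase, had 407 CPM and 290.4 CPM (0.49). RPIA, the isomerase between these arms, was called lower, with 425 counts in the resistant and 945 in the parental library (log2 ratio -1.16). The cytosolic ME1 was at 0.37 and IDH1 at -0.05, with 126 CPM in the resistant and 130.2 CPM in the parental library.

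The 17 other measured NADPH enzymes, RPIA among them, had a median of 0.11, with 5 called higher and 2 lower. The largest differences were in mitochondrial enzymes. NNT, the proton-driven transhydrogenase, had 981 counts (57.8 CPM) in the resistant and 78 counts (4.63 CPM) in the parental library, 12.5-fold higher (9.90 to 15.9). ME3, mitochondrial malic enzyme, had 153 counts in the resistant and 0 in the parental library, at least 50.6-fold higher against 3 counts, with an exact interval that begins at 40.6-fold. ALDH1L2, which makes NADPH from formyl-tetrahydrofolate, had 74 counts in the resistant and 3 in the parental library, 24.5-fold higher (8.05 to 121). IDH2, mitochondrial isocitrate dehydrogenase, was lower by 2.64-fold (2.41 to 2.89), at 38.3 CPM in the resistant and 101 CPM in the parental library. ME3 and ALDH1L2 passed the filter by their resistant level alone, and RPIA and IDH2 were picked out after their values were seen.

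OSGIN1 and UGDH were both called. OSGIN1, an oxidative stress-induced growth inhibitor gene and known NRF2 target, had 880 counts (51.8 CPM) in the resistant and 147 counts (8.73 CPM) in the parental library, 5.94-fold higher (4.98 to 7.12). UGDH, which makes UDP-glucuronate for glucuronidation and matrix polysaccharides, had 8020 counts (472 CPM) in the resistant and 1796 (107 CPM) in the parental library. Its level was 4.43-fold higher (4.21 to 4.66).

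Glutathione transferases join glutathione to electrophiles, and the mu-class genes here were found almost only in the resistant library. GSTM4 had 426 counts (25.1 CPM) in the resistant and 0 in the parental library, at least 141-fold higher against 3 counts, with an exact interval that begins at 114-fold. GSTM3 had 264 counts (15.6 CPM) in the resistant and 2 counts (0.119 CPM) in the parental library, 131-fold higher (35.9 to 1087). The size of these differences depends on the scale: in the authors' deposited log2 values the difference was 4.40 for GSTM4 and 2.23 for GSTM3, against log2 ratios of 9.72 and 6.71 from counts with 0.5 added, which for GSTM4 is no bound. Among the other mu-class genes, GSTM2 had 4 counts in the resistant and 0 in the parental library, and GSTM1 and GSTM5 had 0 in both. The mu-class genes are similar in sequence, and 6.53% of the exon bases of GSTM4 overlap GSTM2, so the split among them is uncertain. GSTA4, the alpha-class enzyme for lipid aldehydes, had 83 counts (4.89 CPM) in the resistant and 30 counts (1.78 CPM) in the parental library, 2.74-fold higher (1.79 to 4.32). Its 19 nearest measured genes had a median log2 ratio of -0.75, opposite in sign.

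The microsomal MGST1 had 1530 counts (90.1 CPM) in the resistant and 2694 counts (160.0 CPM) in the parental library. Its log2 ratio was -0.83, not called. MGST2 was at -0.43 and MGST3 at 0.21, and the cytosolic GSTO1 was at 0.34 and mitochondrial GSTK1 at 0.26. GSTP1, the pi-class enzyme that is widely expressed in lung tumours, had 0 counts in both libraries. It is 1 of 3710 genes listed at 0 in both. Of 4 other measured transferase genes the omega-class GSTO2 was the 1 higher, 3.70-fold (2.52 to 5.58), and none was lower. The 12 measured genes of glutathione turnover had a median of 0.23, with 2 called higher and 1 lower. GGT1, the membrane enzyme that breaks down extracellular glutathione, had 293 counts in the resistant and 12 in the parental library, 24.2-fold higher (13.7 to 47.4). It too passed the filter by its resistant level alone, which fixed its direction. ETHE1, a mitochondrial persulfide dioxygenase, was 3.46-fold higher (2.84 to 4.23). GLO1, the glutathione-dependent glyoxalase, was 2.02-fold lower (1.89 to 2.15).

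**Figure D3:**
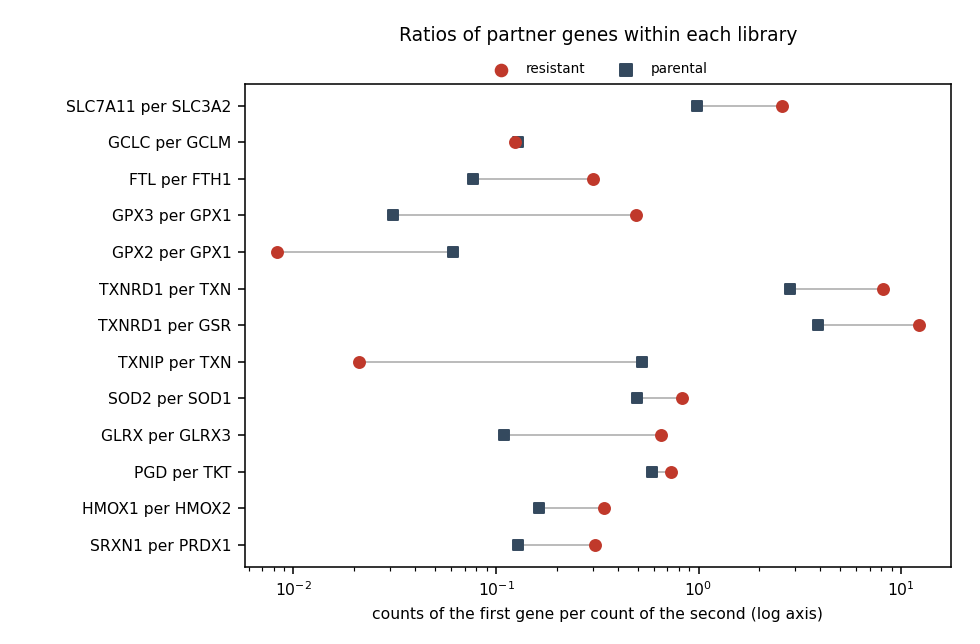
Counts of a gene per count of a partner or paralog in the same library, on a log axis, for the resistant (red circles) and the parental library (dark squares). These ratios do not depend on library scaling. GCLC per GCLM nearly coincides in the libraries, while FTL per FTH1, SLC7A11 per SLC3A2 and TXNRD1 per TXN are higher and TXNIP per TXN is lower in the resistant library.

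The 26 members that are commonly listed as NRF2 targets had 10 higher and 1 lower, with 24 ratios above 0 and a median of 0.47. GSTM3 and GSTM4 are among the 10, and the filter fixed their direction. The other 28 measured members had 4 higher and 2 lower, with 15 ratios above 0 and a median of 0.22. Over all 12245 measured genes 12.1% were higher and 8.29% lower, and 6123 had ratios above 0. Within the first set the ratios ran widely, from -2.60 for GPX2 to GSTM4 with its count of 0 in the parental library. GCLC lay at 0.10, GCLM at 0.15, PRDX1 at 0.03, CBR3 at 0.07 and NQO1 at 0.46, while SLC7A11, OSGIN1, FTL and UGDH all exceeded 2. The difference between these sets of genes was not tested, and the list was chosen with earlier results of these data known. The 14 higher genes lie on 9 chromosomes.

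**Figure D4:**
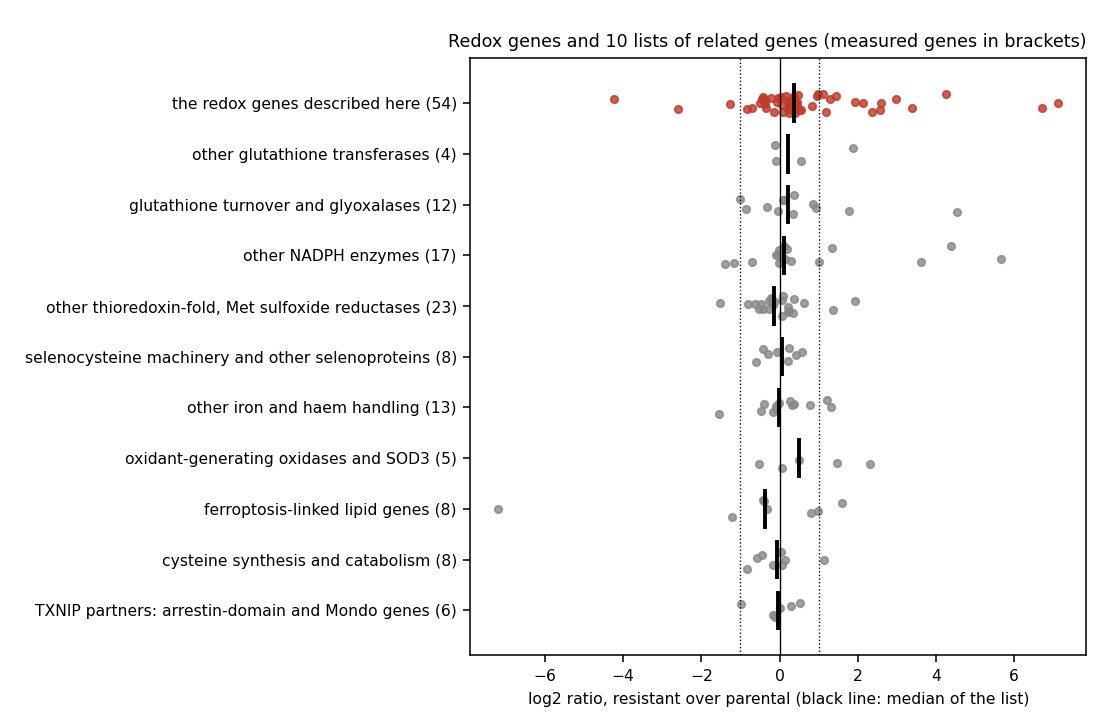
Log2 ratio, resistant over parental, of the 54 measured redox genes (red) and of the measured genes in 10 lists of related genes (grey), with the median of each list as a black line and dotted lines at 2-fold. GSTM4 and ME3 are drawn at the bound set by 3 counts. The medians lie between -0.36 and 0.49, and most lists hold a few genes far from 0.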

How the data were processed

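RNA was measured in 1 library of PHA665752-resistant and 1 of parental H1993 cells. Per the file headers, the authors deposited raw counts per gene symbol and normalized log2 values. Per the submitters' processing notes, FastQC and STAR were used and the builds GRCh38 and hg19 are both named. The counter, its annotation and its strand setting are not given in the sources used here. The labels' protocols name TRIzol for RNA extraction and a TruSeq kit for the libraries.

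The normalization behind the deposited log2 values is not stated. Taken as 2 to the power of the value, minus 1, they scaled with counts divided by a length. For 8345 genes with at least 200 counts in both libraries, that implied length was alike in both: its ratio lay within 5% of the median for 97.2%. Across 8209 of these genes it correlated with the longest GENCODE v29 transcript (Pearson r 0.818, Spearman rho 0.821). This value serves as the length-scaled level where genes are compared.

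Counts were scaled by TMM (edgeR 4.0.16, R 4.3.3) to effective sizes of 16974207 (resistant) and 16834058 (parental). Log2 ratios have 0.5 added to each count. Exact conditional binomial intervals (Clopper-Pearson, scipy 1.17.1) use the counts alone, and intervals of ratios between gene pairs use the normal approximation of the log odds ratio. Folds are ratios of CPM, and a count of 0 was set to 3 counts. Ratios and calls were run on simulated counts that held counting error only, as the intervals assume. Such a run cannot speak to spread between cultures. RefSeq promoter windows and GENCODE v29 overlaps describe the members. Their orientation was checked against GENCODE transcripts, which held the start of 58 of 62 windows.

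The members and lists were chosen with earlier results of these data known. Each called member was named with full values, as was the most abundant member of each role by mean CPM, as were partner genes and up to 3 called genes of each other list; further genes of those lists were named after their values were seen. Alternatives were total-count and DESeq2 1.42.0 scaling, other filters, call sizes and added counts, and the deposited log2 values.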

Additional observations from a re-analysis of the deposited data

How the results depend on the processing

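No paired analysis was possible because each group has 1 library. The redox genes had 14 higher and 3 lower members. With the 4-fold rule 9 were higher, without TXNRD1, PGD, SLC3A2, SRXN1 and GSTA4. In the other settings 13 to 15 were higher and 2 or 3 lower, and the median stayed between 0.36 and 0.39. With the whole interval beyond 2-fold, TXNRD3 and GSTA4 were not called. HMOX1 passed with DESeq2 size factors (1.01) and SOD2 with the deposited log2 values (1.00). No ratio of a called member changed sign, but with the deposited log2 values GSTM4, GSTM3 and GPX8 shrank to 4.40, 2.23 and 1.92, against 9.72, 6.71 and 3.38, and with 2 added to each count GSTM4 and GSTM3 to 7.73 and 6.04. Over all genes, the 4-fold rule gave 774 higher and 359 lower, the deposited log2 values 926 and 591, and the whole interval beyond 2-fold 655 lower. The rule itself sets the first and last of these, and for the deposited values the cause was not tested. The promoter motif stood in 8 members when searched on the gene's own strand only, or 18.2%, against 10.3% of measured genes. Depth limits GSTM3, GSTM4, GSTA4, GPX2, GPX8 and CBR3, each under 100 counts in at least 1 library. GPX7 and GSTP1 were not detectable at this depth. In GENCODE v29, 15 members have pseudogenes named after them and 8 share exon bases with another listed gene, so their levels are less certain. Without replicates, no spread between cultures is known.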

Other observations

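Genes next to these pathways but outside the redox set were looked at in lists. Over all measured genes 12.1% were called higher and 8.29% lower, and no list below was tested against these shares. The 8 measured lipid genes linked to ferroptosis had a median of -0.36, with 1 called higher and 2 lower. The leukotriene-forming lipoxygenase gene ALOX5 had 2 counts in the resistant and 363 in the parental library, 183-fold lower (50.3 to 1517). It passed the filter by its parental level alone, which fixed its direction. LPCAT3, which loads polyunsaturated fatty acids into phospholipids, was 2.31-fold lower (2.04 to 2.61), and the polyamine acetyltransferase gene SAT1 was 3.03-fold higher (2.86 to 3.21). ACSL4, which activates such fatty acids, lay just short of the rule at a log2 ratio of 1.00.

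The 23 measured thioredoxin-fold and methionine sulfoxide reductase genes had a median of -0.14, with 2 called higher and 1 lower. MSRB3 was 3.82-fold higher (3.32 to 4.40), TXNDC9 2.60-fold higher (2.40 to 2.81), and the secreted disulfide oxidase gene QSOX1 2.87-fold lower (2.70 to 3.04). Most oxidant-generating oxidases were scarce, with 5 of 18 genes measured. XDH and AOX1 were called higher on 22 and 26 counts in the resistant and 4 and 9 in the parental library, and both passed the filter by their resistant level alone, which fixed their direction. Among 8 measured genes of cysteine metabolism only CBS, of the transsulfuration pathway, was called, 2.19-fold higher (1.85 to 2.60), with 441 counts in the resistant and 200 in the parental library.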
